A study of Mus musculus with 24 samples.

Results

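The genes described here are 10 transcripts of the blood vessel wall, 5 for leukocyte adhesion and vessel activation (Selp, Sele, Vcam1, Icam1 and Lrg1) and 5 for cell junctions and the blood-brain barrier (Pecam1, Cldn5, Ocln, Tjp1 and Mfsd2a), out of 17097 genes measured on the same arrays. They were taken by gene symbol from the platform annotation, using probe sets with 1 symbol, and where a gene had several, the one that was brightest on average stood for it. All 10 were measured, by 11 probe sets, of which 2 belong to Selp. The values come from 24 Affymetrix arrays of mouse spinal cord, 1 mouse per array. MOG-specific T cells polarized in culture with IL-23 (Th17) or with IL-12 (Th1) were transferred into mice to induce experimental autoimmune encephalomyelitis (EAE), in which myelin is lost at sites of inflammation, and the design asks how the cord differs between the 2 kinds of transfer and whether it depends on Act1, the adaptor of the IL-17 receptor.

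The groups were Th17 recipients labelled Act1 KO (4 arrays), wild-type Th17 recipients (5), wild-type Th1 recipients (5), naive mice labelled Act1 KO (5) and naive wild-type mice (5). Mice were 8 to 12 weeks old and groups were littermates of like age, by the methods of the study. Recipients were irradiated with 500 rad before transfer and naive mice were left untreated, so that the effects of irradiation and of T cells cannot be told apart. The labels place collection at the onset of symptoms and the paper at the peak of disease, and a figure of the paper gives Act1+/- as the genotype of the mice labelled wild type. The check of the targeted gene did not follow the labels: the Traf3ip2 (Act1) probe set read 5.69 ± 0.10 in Th17 recipients labelled Act1 KO and 5.38 ± 0.18 in wild-type Th17 recipients, and 5.56 ± 0.24 in naive mice labelled Act1 KO and 4.29 ± 0.20 in naive wild-type mice (log2, mean ± SD). Whether this probe set lies in the deleted part of the gene is not known, so it may check nothing, and KO below means the library labelled Act1 KO. Recipients named below without that label are wild type. Spinal cord markers read between 6.70 and 7.82 as a list mean over the arrays, and 5 of 6 forebrain markers lay under the array median in every group. For marker lists, here and below, this means a group mean under 3.52, the median of all values. Array medians lay between 3.46 and 3.57, no detection calls came with the values, and a level under that range is near background. Wild-type Th1 recipients 4 and 5 stood apart from the other 3 Th1 recipients on the first principal component, which held 82.8% of the variance, and results that depend on them are given without them.

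Leukocytes enter tissue from blood in steps. Selectins on activated endothelium, P-selectin (Selp) and E-selectin (Sele), slow the passing cell, the immunoglobulin-family receptors VCAM1 and ICAM1 then bind its integrins and arrest it, and PECAM1 takes part in the passage between endothelial cells. In the brain and spinal cord the same cells form a barrier, sealed by claudin-5 (Cldn5) and occludin (Ocln) with the scaffold ZO-1 (Tjp1) beneath them, and the lipid transporter MFSD2A keeps transport by vesicles low. Inflammatory cytokines such as TNF and IL-1 are known to induce the adhesion receptors through NF-kB.

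Promoter sequence is shown for the endothelial adhesion genes whose levels contrast most below, Selp, Sele and Icam1. RefSeq (GRCm38.p6) promoter windows were matched for 8 of the 10 genes, with 9 windows since Ocln has 2, and Vcam1 and Pecam1 were not matched. The 250 bases before the annotated start are printed, all on the plus strand, for Selp (chr1:164115014-164115263), Sele (chr1:164047984-164048233) and Icam1 (chr9:21015690-21015939). Capitals mark matches, on either strand, to an NF-kB motif (GGNNNTTCC), an AP-1 motif (TGANTCA) or a STAT motif (GAS, TTCNNNGAA).
Selp: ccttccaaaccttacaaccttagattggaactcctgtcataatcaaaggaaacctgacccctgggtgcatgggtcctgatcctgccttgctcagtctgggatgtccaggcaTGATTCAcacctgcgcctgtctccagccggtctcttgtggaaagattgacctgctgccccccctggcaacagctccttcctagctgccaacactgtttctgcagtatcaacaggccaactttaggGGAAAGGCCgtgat
Sele: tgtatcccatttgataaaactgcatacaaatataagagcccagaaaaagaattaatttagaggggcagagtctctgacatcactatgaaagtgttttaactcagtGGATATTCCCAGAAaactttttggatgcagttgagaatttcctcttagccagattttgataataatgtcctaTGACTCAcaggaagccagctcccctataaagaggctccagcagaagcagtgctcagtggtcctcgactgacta
Icam1: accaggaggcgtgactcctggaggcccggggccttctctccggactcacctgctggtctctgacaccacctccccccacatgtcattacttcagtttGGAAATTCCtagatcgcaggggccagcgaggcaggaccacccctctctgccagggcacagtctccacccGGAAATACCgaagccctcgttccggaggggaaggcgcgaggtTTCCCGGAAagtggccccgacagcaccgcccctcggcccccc
The Selp window held an AP-1 match from -139 to -133 and an NF-kB match on the minus strand from -14 to -6, counted from the start. The Sele window held an NF-kB match from -145 to -137, a GAS match from -140 to -132 that overlaps it, and an AP-1 match from -73 to -67. The Icam1 window held an NF-kB match on both strands from -153 to -145, another on the minus strand from -84 to -76, and a GAS match from -42 to -34. The Lrg1 window held 1 NF-kB match, from -33 to -25, and the windows of Cldn5, Ocln, Tjp1 and Mfsd2a held none of the 3. Of 32851 mouse promoter windows of the same length, 15.7% held the NF-kB letters, 7.02% the GAS letters and 6.75% the AP-1 letters. A match is a run of letters and was not tested as a binding site.

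In wild-type Th17 recipients, 7 of the 10 genes were called higher than in naive wild-type mice and none lower (limma, adjusted p under 0.05), where 18% of all genes were called higher and 25.5% lower. Icam1, Lrg1, Vcam1, Selp, Pecam1, Cldn5 and Tjp1 were the 7. For all but Tjp1 the groups did not overlap (exact permutation p = 0.00794 each, the smallest 5 arrays against 5 allow). How many of all genes were without overlap was not counted. In wild-type Th1 recipients 4 of the 10, Icam1, Vcam1, Lrg1 and Pecam1, were called higher than in naive wild-type mice, against a background of 16.7% of genes higher and 24.1% lower. Between the 2 kinds of recipients, Selp and Lrg1 were called higher in Th17 recipients and no member lower, against 1.91% of all genes higher and 1.09% lower. The median difference of the 10 genes was 1.14 on the log2 scale in Th17 recipients against naive mice, where that of all genes was -0.05. It was 0.33 for Th1 recipients against naive mice, where that of all genes was -0.06. These comparisons share the naive or the Th1 arrays. The 10 genes were chosen with earlier results of these data known, so their counts beside those shares describe these genes only. In whole tissue, fewer cells of a type and less RNA per cell cannot be told apart.

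**Figure D1:**
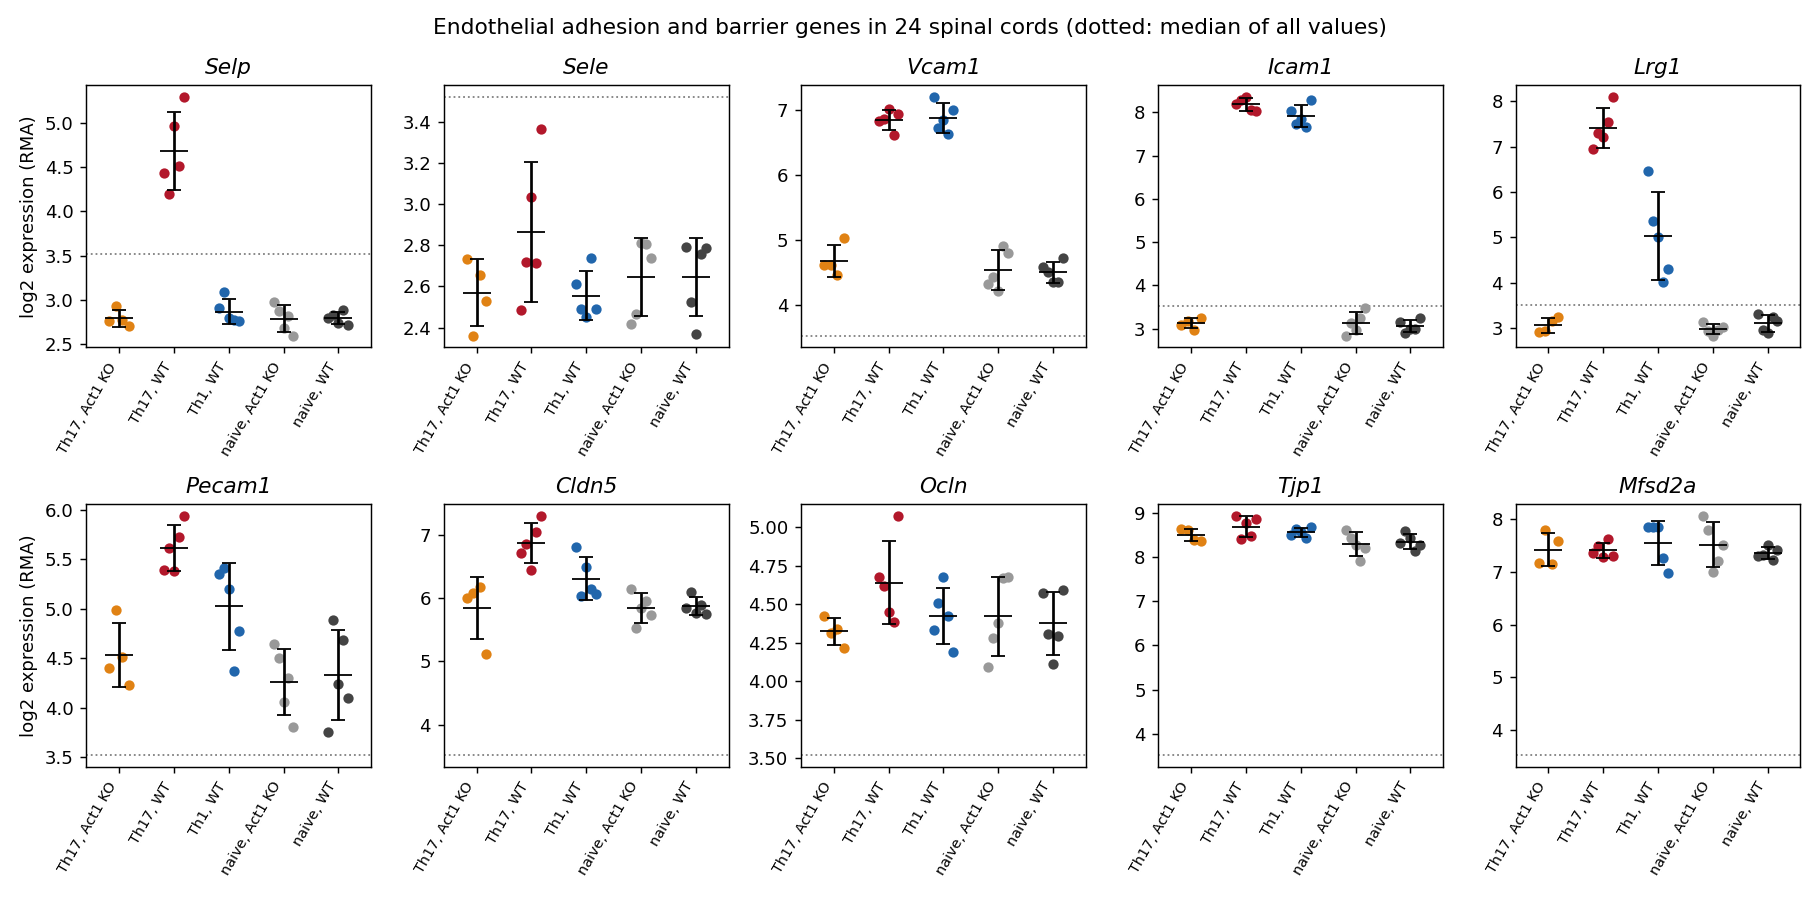
Levels of the 10 genes (log2 RMA values) in each cord; points are single mice in the 5 groups, the horizontal mark and bars are the mean and SD, and the dotted line is the median of all values. Selp in wild-type Th17 recipients lies above every mouse of the other 4 groups, Vcam1 and Icam1 are above naive mice in wild-type Th17 and Th1 recipients alike, and Lrg1 lies between 4.02 and 6.46 in Th1 recipients and between 6.94 and 8.10 in wild-type Th17 recipients.

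Selp, which encodes P-selectin, was the adhesion gene with a rise in Th17 recipients and none detected in Th1 recipients. Its level was 4.43, 4.19, 4.96, 4.52 and 5.29 in wild-type Th17 recipients, 2.91, 3.09, 2.79, 2.78 and 2.76 in wild-type Th1 recipients, and 2.79, 2.83, 2.74, 2.88 and 2.72 in naive wild-type mice (log2 values, here and below). Every wild-type Th17 recipient lay above every mouse of the other groups, and the Th1 and naive values overlapped near background. The difference from naive mice was 1.89 ± 0.14 (SE), at least 3.69-fold since the naive level is near background (adjusted p = 6.65e-12, limma). The difference from Th1 recipients was 1.81 ± 0.14 (adjusted p = 1.87e-09). In Th1 recipients against naive mice it was 0.07, with a 95% confidence interval from -0.21 to 0.35 (adjusted p = 0.733). The second Selp probe set, dimmer, differed by 0.61 between Th17 recipients and naive mice (adjusted p = 4.91e-06), by 0.53 between Th17 and Th1 recipients (adjusted p = 0.00115) and by 0.08 between Th1 recipients and naive mice (adjusted p = 0.584). Selp is also made by megakaryocytes and carried by platelets. Of 9 platelet markers, 7 lay under the array median in wild-type Th17 recipients, and the list mean was 3.16 to 3.30 in wild-type Th17 recipients, 2.93 to 3.13 in wild-type Th1 recipients and 2.99 to 3.09 in naive wild-type mice. The platelet chemokine Pf4 rose by 2.53 in Th17 recipients and by 0.93 in Th1 recipients over naive mice (adjusted p = 9.04e-10 and 0.00189), while the platelet receptor subunits Gp1bb and Gp5 fell by 0.70 and 0.52 in Th17 recipients, and the part of platelets in the Selp result was not tested.

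Sele, which encodes E-selectin and lies near Selp, did not pass the test in any comparison. It read 2.49, 2.72, 3.04, 2.71 and 3.36 in wild-type Th17 recipients, 2.61, 2.49, 2.45, 2.74 and 2.49 in wild-type Th1 recipients, and 2.79, 2.52, 2.37, 2.76 and 2.79 in naive wild-type mice. All 24 values lay under the median of their array, the groups overlapped, and the 2 highest values of the gene were Th17 recipients 5 and 3, which also had the highest Selp. The difference between Th17 recipients and naive mice was 0.22, with an interval from -0.05 to 0.48 (adjusted p = 0.19). At this level the probe set may miss a change.

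Vcam1 and Icam1, the receptors for the integrins VLA-4 and LFA-1, rose after both transfers. Vcam1 read 6.84, 6.86, 7.03, 6.62 and 6.94 in wild-type Th17 recipients, 7.21, 6.72, 6.85, 6.63 and 6.999 in wild-type Th1 recipients, and 4.59, 4.50, 4.34, 4.35 and 4.72 in naive wild-type mice. The wild-type recipients of the 2 kinds overlapped with each other and lay far above all naive mice. The difference from naive mice was 2.36 ± 0.13, or 5.13-fold, in Th17 recipients (adjusted p = 4.31e-14) and 2.38 ± 0.13, or 5.22-fold, in Th1 recipients (adjusted p = 3.73e-14). The 2 kinds of recipients differed by -0.02, with an interval from -0.30 to 0.25 (adjusted p = 0.988).

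Icam1 rose after either transfer. It read 8.20, 8.28, 8.35, 8.04 and 8.02 in wild-type Th17 recipients, 8.02, 7.73, 7.85, 7.67 and 8.29 in wild-type Th1 recipients, and 3.16, 2.89, 3.00, 2.99 and 3.24 in naive wild-type mice. No wild-type recipient of either kind came near the naive range, which lay at background. The difference was 5.12 ± 0.12, at least 34.8-fold, in Th17 recipients (adjusted p = 1.12e-22) and 4.85 ± 0.12, at least 28.9-fold, in Th1 recipients (adjusted p = 3.51e-22). Th17 and Th1 recipients differed by 0.27, with an interval from 0.03 to 0.51, which did not pass the test over all genes (adjusted p = 0.331). Both receptors are also made by leukocytes and glia, and the mean of 11 macrophage markers was 8.22 to 8.51 in wild-type Th17 recipients, 8.20 to 8.37 in wild-type Th1 recipients and 3.60 to 3.65 in naive wild-type mice. That of 8 T cell markers was 5.58 to 5.91 in wild-type Th17 recipients, 5.22 to 5.67 in wild-type Th1 recipients and 2.88 to 2.98 in naive wild-type mice. None of these 11 and 8 markers lay under the array median in the wild-type recipients, and the part of infiltrating cells in the rise of Vcam1 and Icam1 was not tested.

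Lrg1 encodes a secreted leucine-rich glycoprotein that modifies TGF-beta signalling in endothelium. It read 6.94, 7.30, 7.21, 7.54 and 8.10 in wild-type Th17 recipients, 6.46, 5.35, 5.02, 4.02 and 4.30 in wild-type Th1 recipients, and 3.31, 2.95, 2.89, 3.25 and 3.15 in naive wild-type mice. The 3 groups did not overlap, and the Th1 recipients spread over more than the Th17 recipients, with recipient 1 highest and recipients 4 and 5 lowest. The difference from naive mice was 4.31 ± 0.28, at least 19.8-fold, in Th17 recipients (adjusted p = 7.29e-13) and 1.92 ± 0.28, at least 3.79-fold, in Th1 recipients (adjusted p = 2.66e-06). Th17 recipients exceeded Th1 recipients by 2.39 ± 0.28, or 5.23-fold (adjusted p = 3.28e-06), and by 1.81 with Th1 recipients 4 and 5 left out (adjusted p = 2.05e-05). The methods' t-test, which uses only the 10 arrays compared, gave an adjusted p of 0.107 for this difference. Lrg1 is also made by neutrophils. The mean of 10 neutrophil markers was 4.69, 4.93, 5.06, 4.95 and 5.12 in wild-type Th17 recipients, 4.44, 4.06, 3.90, 3.62 and 3.61 in wild-type Th1 recipients, and 2.93 to 3.36 in naive wild-type mice. In Th1 recipients 1 to 3 the order was that of Lrg1, while recipients 4 and 5 had nearly equal neutrophil means in the reverse order. The T cell marker mean read 5.67, 5.63, 5.46, 5.22 and 5.27 in Th1 recipients 1 to 5, in the order of Lrg1 throughout. Of the 10 neutrophil markers, 5 lay under the array median in Th17 recipients and 6 in Th1 recipients. The part of neutrophils or other infiltrating cells in the Lrg1 result was not tested.

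Of the junction and barrier genes, Pecam1 and Cldn5 rose in Th17 recipients. Pecam1, the junctional adhesion receptor of endothelium that leukocytes and platelets also carry, read 5.39, 5.61, 5.38, 5.73 and 5.93 in wild-type Th17 recipients, 5.35, 5.41, 5.20, 4.37 and 4.77 in wild-type Th1 recipients, and 3.75, 4.88, 4.24, 4.68 and 4.10 in naive wild-type mice. All wild-type Th17 recipients lay above all naive mice, while Th1 recipients 4 and 5 lay inside the naive range. The difference from naive mice was 1.28 ± 0.21, or 2.43-fold, in Th17 recipients (adjusted p = 1.17e-05) and 0.69 ± 0.21, or 1.61-fold, in Th1 recipients (adjusted p = 0.00881). Th17 and Th1 recipients differed by 0.59 (interval 0.16 to 1.02, adjusted p = 0.164), and by 0.29 without Th1 recipients 4 and 5 (adjusted p = 0.889). The Th1 call was not made by the methods' t-test after Benjamini-Hochberg adjustment (adjusted p = 0.0871). The macrophage and T cell marker levels given with Icam1 lay above naive levels in all wild-type recipients. Th1 recipients 4 and 5, with Pecam1 in the naive range, had macrophage means of 8.24 and 8.22 and T cell means of 5.22 and 5.27. Th1 recipients 1 to 3 had macrophage means of 8.37, 8.20 and 8.35 and T cell means of 5.67, 5.63 and 5.46. Neutrophil means were 4.44, 4.06 and 3.90 in Th1 recipients 1 to 3, and 3.62 and 3.61 in recipients 4 and 5. The mean of 20 markers of endothelial identity, described below, was 4.86, 4.78 and 4.78 in the former and 4.52 and 4.67 in the latter. The part of infiltrating or endothelial cells in the Pecam1 result was not tested.

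Cldn5, the main claudin of the barrier's tight junctions, was higher, not lower, in Th17 recipients. It read 6.72, 6.86, 6.45, 7.04 and 7.30 in wild-type Th17 recipients, 6.81, 6.04, 6.49, 6.14 and 6.07 in wild-type Th1 recipients, and 5.85, 6.10, 5.76, 5.89 and 5.76 in naive wild-type mice. The Th17 and naive values did not overlap, and 3 of the 5 Th1 values lay above the highest naive value. The difference from naive mice was 1.00 ± 0.18, or 2.01-fold, in Th17 recipients (adjusted p = 4.16e-05), and 0.44 ± 0.18 in Th1 recipients, just short of the threshold (adjusted p = 0.0538). The Th1 difference was called in 13 of 40 other settings, 7 of which left out 1 array, among them a fit of the compared groups only (adjusted p = 0.0182) and one without Th1 recipients 4 and 5 (0.58, adjusted p = 0.0311). Th17 and Th1 recipients differed by 0.56 (interval 0.19 to 0.94, adjusted p = 0.103).

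The other 3 barrier genes differed less between groups. Tjp1, which encodes ZO-1, read 8.93, 8.41, 8.77, 8.49 and 8.87 in wild-type Th17 recipients, 8.51, 8.64, 8.56, 8.43 and 8.68 in wild-type Th1 recipients, and 8.31, 8.59, 8.42, 8.14 and 8.27 in naive wild-type mice. The groups overlapped, and the rise of 0.34 ± 0.12, or 1.27-fold, in Th17 recipients (adjusted p = 0.0191) was lost without Th17 recipient 1 or 5 or naive mouse 4 (adjusted p up to 0.0666), with arrays centred on their median (adjusted p = 0.0557) and in the methods' t-test (adjusted p = 0.0632). Ocln read 4.68, 4.62, 4.45, 4.39 and 5.07 in wild-type Th17 recipients, 4.33, 4.51, 4.68, 4.42 and 4.19 in wild-type Th1 recipients, and 4.58, 4.31, 4.11, 4.29 and 4.59 in naive wild-type mice. These overlapped, with Th17 recipient 5 highest, and the difference from naive mice was 0.26 in Th17 recipients (interval 0.00 to 0.53, adjusted p = 0.102) and 0.05 in Th1 recipients (adjusted p = 0.811).

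Mfsd2a read 7.36, 7.49, 7.28, 7.63 and 7.30 in wild-type Th17 recipients, 7.85, 7.85, 7.85, 7.26 and 6.97 in wild-type Th1 recipients, and 7.31, 7.32, 7.52, 7.22 and 7.41 in naive wild-type mice. The Th17 values overlapped the naive ones, and in Th1 recipients 3 mice lay above and recipient 5 below all naive mice. The difference from naive mice was 0.06 in Th17 recipients (interval -0.31 to 0.43, adjusted p = 0.844) and 0.20 in Th1 recipients (interval -0.17 to 0.57, adjusted p = 0.424). Without Th1 recipients 4 and 5 the Th1 difference was 0.50 (adjusted p = 0.0267). No decrease of Cldn5, Ocln, Tjp1 or Mfsd2a was called in recipients of either kind.

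**Figure D2:**
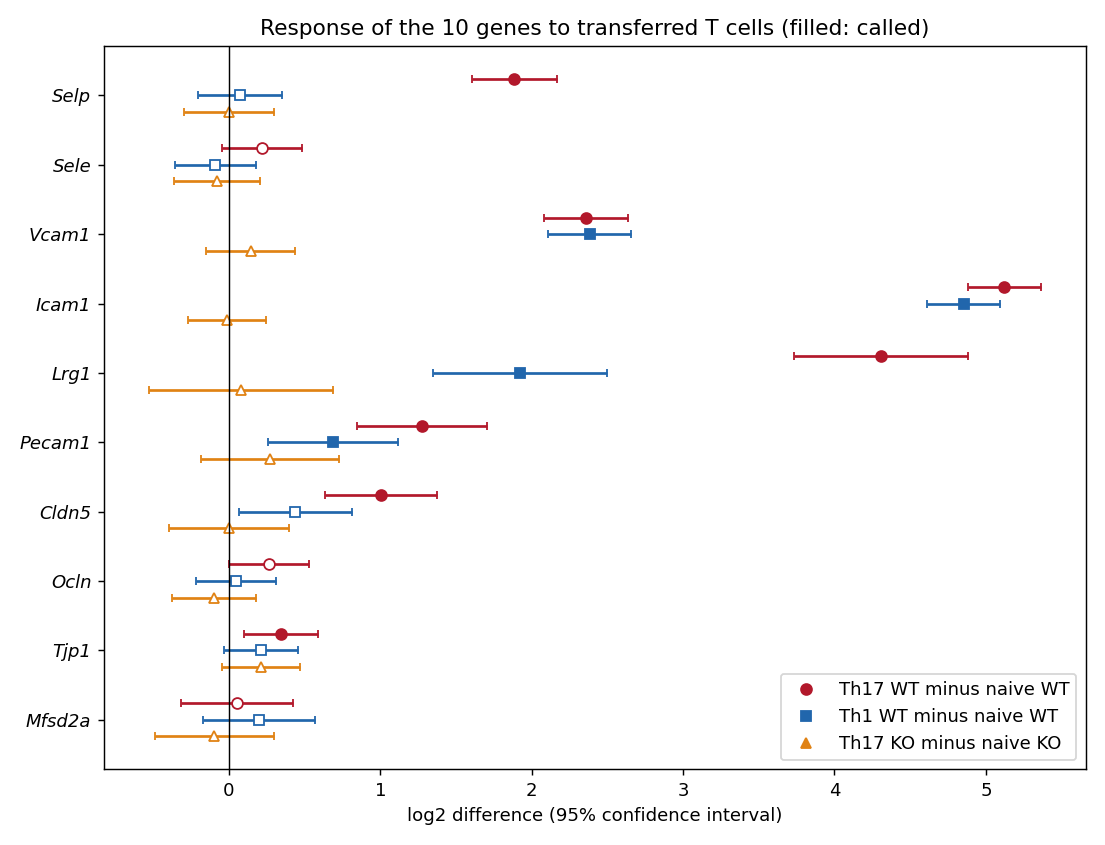
Difference of each gene from naive mice of the same genotype label (log2, with 95% confidence interval) in wild-type Th17 recipients, wild-type Th1 recipients and Th17 recipients labelled Act1 KO; filled marks are called. Vcam1 and Icam1 lie together in wild-type Th17 and Th1 recipients, Selp and Lrg1 lie apart, and all 10 intervals in Th17 recipients labelled Act1 KO include 0.

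The 10 genes were also set on a second scale, relative to 20 markers of endothelial identity. Of the 20, 6 were called higher and 1 lower in Th17 recipients against naive mice, with a median of 0.13. In Th1 recipients 6 were called higher and 2 lower, with a median of -0.03. Of all genes, 18% were called higher and 25.5% lower in Th17 recipients, and 16.7% and 24.1% in Th1 recipients. The list mean was 4.75 to 5.10 in wild-type Th17 recipients, 4.52 to 4.86 in wild-type Th1 recipients and 4.38 to 4.64 in naive wild-type mice. Ly6c1, whose probe set may share signal with its near-identical monocyte paralog, moved most (2.63 in Th17 recipients), followed by the matrix protein gene Mmrn2 (0.93), the TGF-beta co-receptor gene Eng (0.91) and the C-type lectin gene Clec14a (0.79), while the angiopoietin receptor gene Tek fell by 0.30. Relative to the mean of these genes, Th17 recipients still exceeded naive mice by 4.79 for Icam1, 3.97 for Lrg1, 2.02 for Vcam1, 1.55 for Selp, 0.94 for Pecam1 and 0.67 for Cldn5, and all 6 were called. Tjp1 was not called on this scale (0.01, adjusted p = 0.945), Ocln gave -0.07 and Mfsd2a -0.28. With Ly6c1 left out of the scale, Cldn5 gave 0.79 and Tjp1 0.13 (adjusted p = 0.343). With all 20 in the scale the median of all genes was -0.39 in Th17 recipients against naive mice, in place of -0.05, and 1841 genes were called higher and 12128 lower, in place of 3069 and 4367. In Th1 recipients the scale of 20 gave a call for Sele (-0.31, adjusted p = 0.0401), which is near background.

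**Figure D3:**
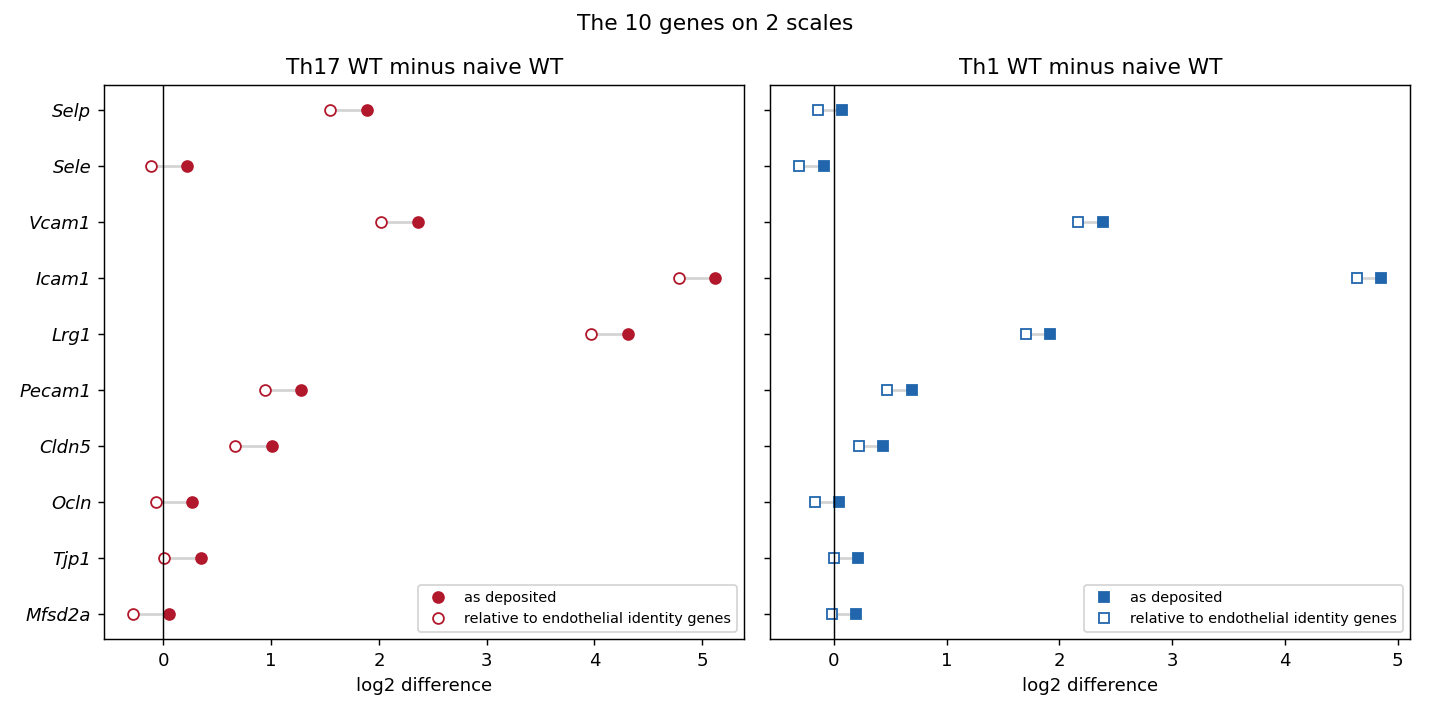
Differences from naive wild-type mice (log2) for the 10 genes in wild-type Th17 recipients and in wild-type Th1 recipients, as deposited (filled) and relative to the mean of 20 endothelial identity genes (open). On the second scale Icam1 is at 4.79 and Cldn5 at 0.67 in Th17 recipients, and Ocln, Tjp1 and Mfsd2a lie near or below 0.

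In Th17 recipients labelled Act1 KO, none of the 10 genes differed by test from naive mice labelled Act1 KO. No gene of the 17097 was called in this comparison by limma (0% higher and 0% lower), with 576 higher and 494 lower at an unadjusted p under 0.05, and none was called by the methods' t-test after adjustment. Of the 10 genes, 0 passed either test even unadjusted. Selp read 2.76, 2.93, 2.77 and 2.71 in Th17 recipients labelled Act1 KO, against 2.97, 2.88, 2.68, 2.81 and 2.60 in naive mice labelled Act1 KO. Icam1 read 3.09, 3.18, 2.98 and 3.25 in Th17 recipients labelled Act1 KO, against 2.84, 3.14, 2.96, 3.25 and 3.49 in naive mice labelled Act1 KO. The groups overlapped for all 10 genes, and the differences lay between -0.10 for Ocln and 0.27 for Pecam1 (interval -0.18 to 0.73, adjusted p = 0.929).

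Vcam1 read 4.61, 4.61, 4.45 and 5.03 in Th17 recipients labelled Act1 KO, against 4.32, 4.42, 4.20, 4.90 and 4.80 in naive mice labelled Act1 KO. Lrg1 read 2.93, 2.93, 3.15 and 3.25 in these recipients, against 3.15, 2.94, 2.84, 2.97 and 3.03 in these naive mice. Cldn5 read 6.01, 6.08, 6.17 and 5.11 in the recipients, against 6.15, 5.52, 5.85, 5.95 and 5.74 in the naive mice. The groups overlapped for all 3 genes, and Cldn5 was lower in recipient 4 than in any naive mouse. Leukocyte markers lay near background in these recipients too. The T cell list read 2.97 to 3.10 in Th17 recipients labelled Act1 KO (7 of 8 markers under the array median), against 2.86 to 3.10 in naive mice labelled Act1 KO (8 of 8). The macrophage list read 3.47 to 3.65 in Th17 recipients labelled Act1 KO (7 of 11 under the median), against 3.55 to 3.65 in naive mice labelled Act1 KO (6 of 11). How far the levels of the 10 genes go with those of leukocytes was not tested.

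Compared with wild-type Th17 recipients, those labelled Act1 KO were lower in 6 of the 10 genes and called higher in none, where 17.6% of all genes were called lower and 24.6% higher. The difference was -5.05 for Icam1, -4.35 for Lrg1, -2.18 for Vcam1, -1.89 for Selp, -1.08 for Pecam1 and -1.03 for Cldn5, with adjusted p between 6.62e-22 and 0.000238. The groups did not overlap for any of the 6, and overlap was not counted for all genes here either. Ocln (-0.32, adjusted p = 0.0643), Sele (-0.29, adjusted p = 0.0904), Tjp1 (-0.19) and Mfsd2a (0.01) did not pass. In naive mice, those labelled Act1 KO did not differ by test from wild type in any of the 10, with differences between -0.12 for Lrg1 and 0.17 for Mfsd2a. There 0.164% of all genes were called higher and 0.421% lower, with 539 and 711 at an unadjusted p under 0.05, and 0 of the 10 passed unadjusted or in the methods' t-test.

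The test of the difference itself, the response to Th17 transfer under the KO label minus that in wild type, was negative and called for the same 6 genes, where 13.8% of all genes were called lower and 18.2% higher. It was -5.13 ± 0.17 for Icam1 (adjusted p = 1.15e-18), -4.23 ± 0.41 for Lrg1 (adjusted p = 3.95e-09), -2.21 ± 0.20 for Vcam1 (adjusted p = 7.5e-10) and -1.88 ± 0.20 for Selp (adjusted p = 2e-08). It was -1.01 ± 0.30 for Pecam1 (adjusted p = 0.0114) and -1.00 ± 0.26 for Cldn5 (adjusted p = 0.00384). With the plate row, read from a position code in the array titles, as a block, the last 2 were no longer called (-0.67, adjusted p = 0.238, for Pecam1 and -0.85, adjusted p = 0.143, for Cldn5). Among the arrays labelled Act1 KO, no plate row held both Th17 recipients and naive mice. In wild type, 4 rows held both, and within them the Th17 difference was 5.02 to 5.20 for Icam1, 3.90 to 4.84 for Lrg1, 2.12 to 2.60 for Vcam1, 1.47 to 2.41 for Selp, 0.84 to 1.63 for Pecam1 and 0.60 to 1.41 for Cldn5. In the 3 rows that held both Th17 and Th1 recipients, Selp was higher in Th17 recipients by 1.28 to 2.21 and Lrg1 by 0.84 to 2.91. The Th1 recipients sat in plate columns 3 and 7, which held no other array, so in every comparison with Th1 recipients, those of Selp and Lrg1 included, the kind of transfer and the plate column cannot be told apart.

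Other genes of the same pathways are given by list, and the lists too were chosen with earlier results of these data known. Of 15 further endothelial adhesion genes, 8 rose and 4 fell in Th17 recipients against naive mice (median 0.66, all genes -0.05). In Th1 recipients 6 rose and 4 fell (median 0.32, all genes -0.06). The shares of all genes were 18% higher and 25.5% lower in Th17 recipients, and 16.7% and 24.1% in Th1 recipients. Vwf, encoding von Willebrand factor, stored with P-selectin in endothelial granules, rose by 3.75 in Th17 recipients and by 2.75 in Th1 recipients, and the difference between them, 1.00, was called (adjusted p = 0.00175). Procr, the protein C receptor gene, rose by 2.93 in Th17 recipients and by 3.39 in Th1 recipients, and Cd34, a sialomucin gene, by 1.83 in Th17 recipients and 1.11 in Th1 recipients. F11r, encoding junctional adhesion molecule A, rose by 1.77 in Th17 recipients and 2.23 in Th1 recipients, and was lower in Th17 than in Th1 recipients (-0.45, adjusted p = 0.00921). Mcam (-0.66), Jam2 (-0.62), Cd99l2 (-0.49) and Alcam (-0.46) fell in Th17 recipients. The sialomucin gene Emcn was also higher in Th17 than in Th1 recipients (0.66, adjusted p = 0.0381). Between these groups 3 of the 15 were called higher and 1 lower, where the shares of all genes were 1.91% and 1.09%.

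The leukocyte side of the same contacts rose with both transfers, 9 of 13 genes in each, with 1 lower. The medians were 2.20 in Th17 recipients and 2.22 in Th1 recipients over naive mice. Among all genes, 18% were called higher and 25.5% lower in Th17 recipients, and 16.7% and 24.1% in Th1 recipients. Itgb2 and Itgal, the chains of LFA-1 that binds ICAM1, rose by 6.19 and 5.24 in Th17 recipients and by 6.35 and 5.43 in Th1 recipients. Itgam, the alpha chain of Mac-1, rose by 4.60 in Th17 recipients and 4.08 in Th1 recipients, and was the 1 gene of the list called between them (0.52, adjusted p = 0.038). Itgb7 rose by 3.37 in Th17 recipients and 3.28 in Th1 recipients, and the sialyltransferase gene St3gal6 fell by 0.49 in each. Selplg, which encodes the P-selectin ligand, rose by 2.20 in Th17 recipients and 2.22 in Th1 recipients (difference -0.02 ± 0.13, adjusted p = 0.992).

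**Figure D4:**
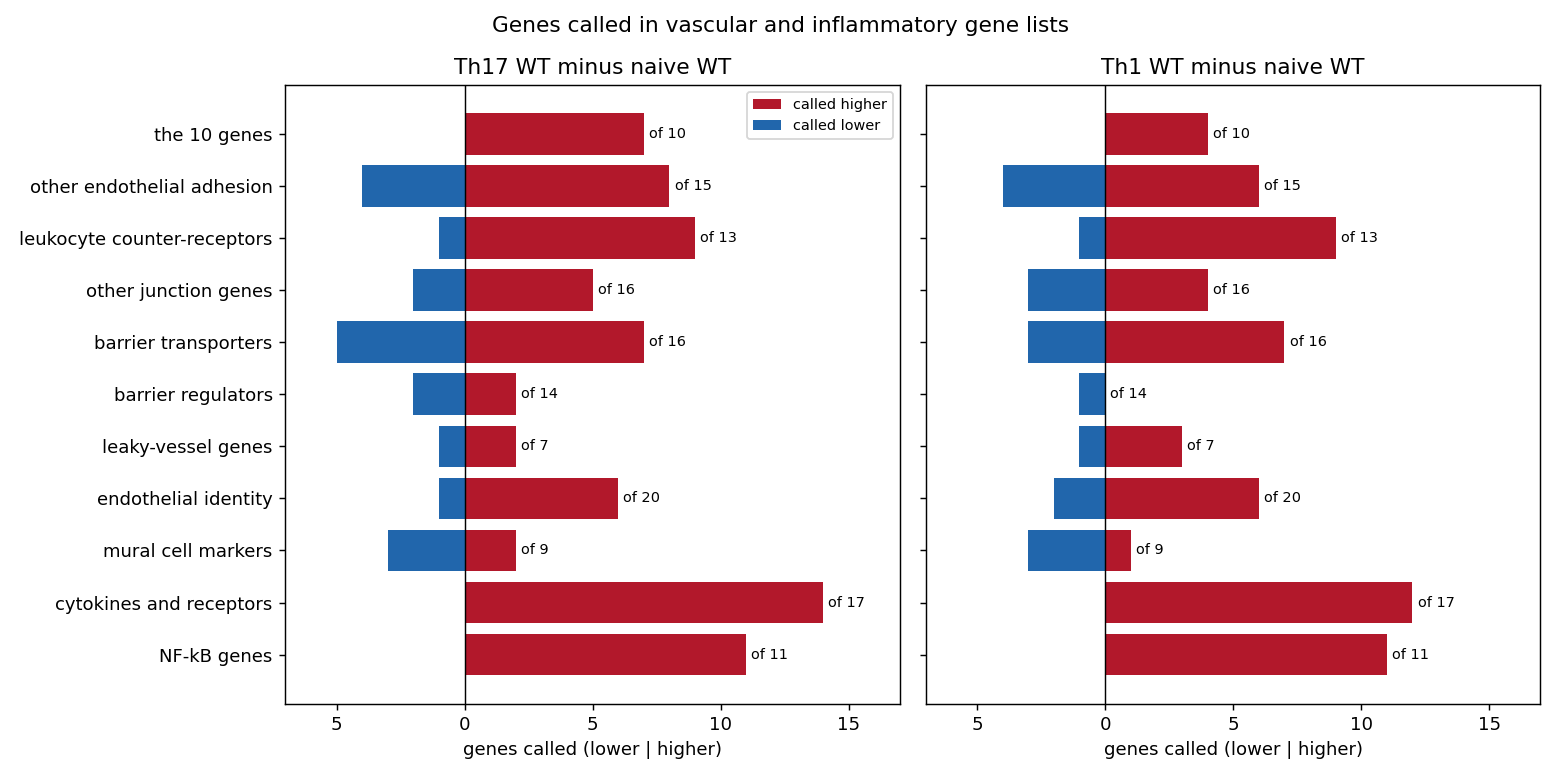
Number of genes called higher (to the right) and lower (to the left) than in naive wild-type mice, for the 10 genes and 10 lists of related genes, in wild-type Th17 recipients and wild-type Th1 recipients; the text beside each bar gives the number measured. All 11 NF-kB genes were called higher after either transfer, and of the 16 junction genes 5 were in Th17 and 4 in Th1 recipients. Of all genes, 18% were called higher in Th17 and 16.7% in Th1 recipients.

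Of 16 further junction genes, 5 rose and 2 fell in Th17 recipients (median 0.01) and 4 rose and 3 fell in Th1 recipients. None was called between Th17 and Th1 recipients by limma, where 1.91% of all genes were called higher and 1.09% lower. At those shares, no call among 16 genes is near the background. Among all genes against naive mice, 18% were called higher and 25.5% lower in Th17 recipients and 16.7% and 24.1% in Th1 recipients. Lsr, encoding angulin-1 of tricellular junctions, rose by 1.32 in Th17 recipients and 1.00 in Th1 recipients, and the catenin gene Ctnna1 by 0.54 in Th17 recipients and 0.41 in Th1 recipients. The scaffold gene Magi1 fell by 0.90 in Th17 recipients and 0.82 in Th1 recipients, and the paracingulin gene Cgnl1 by 0.69 in Th17 recipients and 0.68 in Th1 recipients. Of 16 barrier transporters, 7 rose and 5 fell in Th17 recipients (median 0.25), and 7 rose and 3 fell in Th1 recipients (median 0.23), against the same shares of all genes. Abcc4, an efflux pump gene, rose by 1.17 and the organic anion transporter gene Slco2b1 by 0.91 in Th17 recipients. Slco1c1, which encodes the thyroxine carrier of brain endothelium, fell by 0.85, Slco1a4 by 0.76, Slc38a3 and Slc22a8 by 0.59 each, and the transferrin receptor gene Tfrc by 0.34. Between Th17 and Th1 recipients, the amino acid transporter gene Slc38a5 was higher by 0.85 (adjusted p = 0.000609) and Slco1c1 was lower (-0.58, adjusted p = 0.00664). Of 14 barrier regulators, 2 rose in Th17 recipients (Adgra2, 0.33, and Lef1, 0.25) and 2 fell (Tspan12, -0.47, and Ndp, -0.39), beside 18% higher and 25.5% lower among all genes. In Th1 recipients 0 rose and 1 fell (Ndp, -0.51), beside 16.7% and 24.1%.

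Of 17 genes for inflammatory cytokines and their receptors, 14 rose in Th17 recipients (median 1.32) and 12 in Th1 recipients (median 1.50), with none lower. Among all genes, 18% were called higher and 25.5% lower in Th17 recipients, and 16.7% and 24.1% in Th1 recipients. Between Th17 and Th1 recipients, 1.91% of all genes were called higher and 1.09% lower. The TNF receptor gene Tnfrsf1b rose by 4.63 in Th17 recipients and 4.85 in Th1 recipients, the interleukin 1 beta gene Il1b by 4.38 in Th17 recipients and 2.10 in Th1 recipients, and the oncostatin M receptor gene Osmr by 3.59 in Th17 recipients and 2.97 in Th1 recipients. Il1b (2.28, adjusted p = 3.16e-08), Il6 (0.98, adjusted p = 0.00299), Il1r1 (0.86, adjusted p = 0.00289) and Osmr (0.62, adjusted p = 0.0183) exceeded their Th1 levels in Th17 recipients. All 11 measured genes of NF-kB signalling and its feedback rose after both transfers, with medians of 2.35 in Th17 recipients and 1.99 in Th1 recipients. Birc3 rose by 4.14 in Th17 recipients and 3.74 in Th1 recipients, Tnfaip3 by 3.88 in Th17 recipients and 3.55 in Th1 recipients, and for 5 of the 11 Th17 recipients lay above Th1 recipients by test, among them Bcl3 (1.46, adjusted p = 0.000248) and Nfkbiz (1.37, adjusted p = 2.26e-05), which encode atypical I-kB proteins. Of 12 genes of TGF-beta signalling, 5 rose and 2 fell in Th17 recipients (median 0.27), led by Tgfb1 (3.34) and its receptor gene Tgfbr2 (2.67), and 5 rose and 1 fell in Th1 recipients (median 0.25). Between Th17 and Th1 recipients none was called higher and the receptor gene Tgfbr1 was called lower (-0.58, adjusted p = 0.0337), with a list median of -0.08.

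For each of the 6 genes whose group means spanned at least 1 on the log2 scale, the 3 genes with the most similar pattern were taken by the root mean square difference over the 24 arrays after centring each gene. Selp was closest to Il1f9, a cytokine gene of the interleukin 1 family (0.23), then Gm13889 (0.31) and Mefv (0.32). Icam1 was closest to C3ar1 (0.20), Gbp3 (0.20) and Nlrc5 (0.23), and Vcam1 to Hcst (0.19), Selplg (0.21) and Sema4d (0.22). Lrg1 was closest to Spidr (0.42), Angptl4 (0.42) and the neutrophil collagenase gene Mmp8 (0.43). These distances are not scaled to the span of the group means, which was 4.43 for Lrg1 and 1.03 for Cldn5. Pecam1 was closest to Aurka (0.24), Odc1 (0.28) and Lsr (0.28), and Cldn5 to Nat2 (0.22), Afg3l1 (0.25) and Sphk1 (0.26). The arrays share their groups, so that these distances describe the group pattern more than the mice within it.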

How the data were processed

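RNA from 24 spinal cords was hybridized to Affymetrix arrays with 1 array per mouse. The authors deposited log2 expression values of 45118 probe sets made by RMA, which corrects background, brings arrays to a common distribution and summarises probes, so that a shift of all genes in a group would not be visible. The RMA version is not given in the sources used here. Of the probe sets, 28898 have 1 gene symbol, 551 several and 15669 are not listed in the platform annotation. The first were used, which gave 17097 genes. Groups came from the sample labels. Group differences came from limma 3.58.1 under R 4.3.3 (lmFit, eBayes, 24 arrays in 1 fit, no block), two-sided, with Benjamini-Hochberg adjustment over all genes and calls at an adjusted p under 0.05, and the fit was tested on simulated data. Exact permutation of arrays was run for single genes. Precision is limited by the number of arrays. Arrays of 1 group correlated at 0.986 to 0.997, and no pair was identical.

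All 10 genes are named. From each list up to 4 called genes with the largest difference, and called genes against the list's median, are named. The 10 genes and the lists were chosen with earlier results of these data known. Alternatives covered probe set choice, dim genes, array scaling, the variance model, array weights, the samples fitted, blocks by replicate number, plate row and plate column, single arrays left out, the t-test of the methods and a 2-fold threshold. The plate column block could not be fitted for comparisons with Th1 recipients, whose columns held no other array. Fits without Th1 recipients 4 and 5, and centring without Ly6c1, were added after seeing the data.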

Additional observations from a re-analysis of the deposited data

Results flagged for a closer look

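Of 50 groups of values (10 genes in 5 groups), 1 held a value far from the others by Dixon's criterion, and chance gives about 1 in 20. In Th17 recipients labelled Act1 KO, Cldn5 read 5.11 in recipient 4, while the other 3 read 6.01 to 6.17. The response to Th17 transfer differed between mice labelled Act1 KO and wild-type mice by the interaction test in limma for 6 genes. The difference of responses was -1.88 for Selp (adjusted p = 2e-08), -2.21 for Vcam1 (adjusted p = 7.5e-10), -5.13 for Icam1 (adjusted p = 1.15e-18), -4.23 for Lrg1 (adjusted p = 3.95e-09), -1.01 for Pecam1 (adjusted p = 0.0114) and -1.00 for Cldn5 (adjusted p = 0.00384).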

How the results depend on the processing

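No called result of the 10 genes reversed, and of 2823 member values under other settings 2784 kept their side of the threshold. Among values not called, 99 changed sign, and with centring on endothelial genes these included Sele (-0.12), Ocln (-0.07) and Mfsd2a (-0.28) in Th17 recipients, and Mfsd2a (-0.01) in Th1 recipients, against naive mice. Between Th17 and Th1 recipients 2 genes were called, against 1 by the t-test of the methods after adjustment (Benjamini-Hochberg) and 4 before it. The call for Lrg1 there was lost with adjustment. Leaving out each array in turn changed no count of calls among the 10 genes by over 1.5 times. It ended the Tjp1 call without Th17 recipient 1 or 5 or naive mouse 4. Over all 24 arrays left out in turn, the Tjp1 difference was 0.29 to 0.42. Cldn5 was called in Th1 recipients against naive mice in 7 of 24 cases. Between Th17 and Th1 recipients, Cldn5 was called without Th17 recipient 3, Th1 recipient 1 or Th17 recipient 4 labelled Act1 KO. Against wild-type Th17 recipients, Ocln (-0.31, adjusted p = 0.0472) was called in those labelled Act1 KO with array weights and Sele (-0.33, adjusted p = 0.0497) with the plate row block. Ocln was also called there without wild-type Th17 recipient 3 or 4 (-0.38 to -0.21 over the arrays left out), and Sele without recipient 1 (-0.39 to -0.17). Of all genes, 513 were called between Th17 and Th1 recipients, against 69 by the adjusted t-test and 320 without Th1 recipients 4 and 5, and 100 between naive mice labelled Act1 KO and wild type, against 11 and, with the plate row block, 35. Array weights gave 8 calls, where there were 0, between Th17 recipients and naive mice labelled Act1 KO, none among the 10 genes. There, 7 genes were called without Th17 recipient 2 labelled Act1 KO, 4 without Th1 recipient 4, 2 without naive mouse 4 labelled Act1 KO and 1 each without 4 other arrays (recipients 3 and 4, naive mice 2 and 5, all labelled Act1 KO). In the other comparisons no array left out moved the count of all genes called by over 1.5 times. With the 2-fold threshold, 1649 genes were called in Th17 recipients against naive mice (7436 without it), and Tjp1 in Th17 recipients and Pecam1 in Th1 recipients were not called. Replicate numbers did not pair the arrays: same-numbered arrays correlated at -0.29 to 0.44 in their deviations, 16 of 46 pairs over 0.1, and 0 arrays correlated best with their own number in every other group. With a replicate block, 7 of the 10 genes were called in Th17 recipients against naive mice, and 7498 of all genes, and no call among the 10 changed.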

Other observations

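Mural cell and fibroblast genes around the vessels are not among the lists described above. Of 9 mural cell markers, 2 rose and 3 fell in wild-type Th17 recipients against naive wild-type mice: the aminopeptidase gene Anpep rose by 3.99, a gene that myeloid cells also express, the smooth muscle actin gene Acta2 rose by 0.73, and the pericyte genes Vtn and Rgs5 fell by 0.58 and 0.35. Of all genes, 18% rose and 25.5% fell in this comparison. Of 10 meningeal fibroblast genes, 6 rose and 1 fell, with Col3a1 higher by 4.32, Dcn by 2.69 and Col1a1 by 2.67, and Ptgds lower (-0.49). Col3a1 (1.31, adjusted p = 0.000609) and Dcn (1.28, adjusted p = 9.77e-05) were also higher in Th17 than in Th1 recipients (limma). Of 7 genes of leaky vessels, 2 rose, 1 fell and 4 were not called in Th17 recipients against naive mice (median 0.14). In Th1 recipients 3 rose and 1 fell (median 0.14), where 16.7% of all genes rose and 24.1% fell. Between Th17 and Th1 recipients 1 of the 7 was called lower and none higher, beside 1.09% and 1.91% of all genes. Angpt2, an antagonist of the Tek receptor, rose by 1.00 in Th17 recipients and 0.52 in Th1 recipients, and the caveolin gene Cav1 by 0.91 in Th17 recipients and 0.92 in Th1 recipients. The apelin gene Apln fell by 1.52 in Th17 recipients and 1.13 in Th1 recipients.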
